A study of Homo sapiens with 44 samples.

Results

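Interferon regulatory factors (IRFs) are transcription factors that share a DNA-binding domain, and 7 genes of this family, IRF1, IRF2, IRF3, IRF5, IRF7, IRF8 and IRF9, were followed among the 40663 gene symbols of the count table. They were chosen by symbol, over all 11 groups. The cells were Ccd-18Co, a human colon fibroblast line used at up to passage 20, sequenced as 44 bulk RNA-seq libraries. In the study's methods, cells were starved without serum for 72 h and then kept for 24 h in serum-free medium with 1 of 10 cytokines or unstimulated, with 4 replicates in each group. The cytokines were, by the labels and the study's methods, IL-1β (IL1B) at 0.1 ng/ml, for which a figure legend of the study gives a lower dose, and, at 10 ng/ml each, IL-6, IL-13, IL-17A, IL-22, IFNα (IFNA), IFNγ (IFNG), TGF-β1 (TGFB1), TNF and oncostatin M (OSM). Nothing in the labels says that replicates were separate cultures, so p-values measure only the spread between these samples. The work rests on 1 cell line, and the labels do not name the IFNα subtype.

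IRFs bind the interferon-stimulated response element and related sites, and each has its own place in the interferon pathways. IRF3, IRF5 and IRF7 lie latent in the cytoplasm until sensors of foreign nucleic acid lead to their phosphorylation. IRF9 is the DNA-binding part of ISGF3, the complex that type I interferon receptors activate. IRF1 is induced directly by IFNγ signalling and activates antigen presentation genes, IRF2 binds the same sites and can oppose it, and IRF8 is best known from myeloid and B cells.

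Total estimated counts lay between 742173 and 2213424 per library, with a median of 1480882. Levels are in CPM, counts scaled to the normalized library size, and 3 counts corresponded to between 1.39 and 3.84 CPM depending on the library. All 10 fibroblast markers examined had more than 3 counts in at least 1 library. Of 9 leukocyte markers, 5 (ITGAM, CD3E, CD79A, MS4A1 and SPI1) were at 0 in all libraries and 3 (CD14, CSF1R and LYZ) passed 3 counts in at least 1, and the summed level of the 9 reached 4.39 CPM at most. Of 4 epithelial and 3 endothelial markers, 1 each (VIL1 and VWF) passed 3 counts in any library, with sums of up to 26.6 and 2.65 CPM. The summed level of the fibroblast markers had a median of 37360.0 CPM in unstimulated cells, 29960.0 with IFNα and 24290.0 with IFNγ. It was also lower than in unstimulated cells with TNF (25110.0), TGF-β1 (26200.0) and IL-1β (27370.0), and it was highest with IL-13 (44940.0). The part of this level in the results was not tested. In bulk samples, fewer cells of a type and less RNA per cell cannot be told apart.

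IRF1, IRF2, IRF3 and IRF9 passed the filter on low counts among 9513 genes, and IRF5, IRF7 and IRF8 did not. The tested members had between 439 and 1067 counts each over the 44 libraries and were at 0 in 1 library each. The others had 2.0 (IRF5), 45.5 (IRF7) and 20 (IRF8) counts in all. Of the 40 comparisons of a tested member with unstimulated cells, 4 passed an adjusted p of 0.05 (edgeR quasi-likelihood test, Benjamini-Hochberg adjustment over all genes tested), and 8 had an unadjusted p under 0.05. The 4 calls were IRF1 and IRF9 with IFNα and the same members with IFNγ, and all were higher than in unstimulated cells. As background, 9.85% of all genes tested were called with IFNα and 10.7% with IFNγ, and 4.99% and 5.53% were called as higher. An unadjusted p under 0.05 was reached by 21.4% of all genes with IFNα, 23.3% with IFNγ, 23.5% with TNF and 12.6% with IL-17A.

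The promoters of IRF1 and IRF9, the members that were called, are shown because both hold a match to the gamma-activated sequence (GAS), an element of genes that IFNγ induces. Each line gives the 250 bases before the start site from RefSeq, with motif matches in capitals. IRF1 lies on the minus strand at chr5:132490774-132491023 (GRCh38.p14), and IRF9 on the plus strand at chr14:24161015-24161264.
IRF1: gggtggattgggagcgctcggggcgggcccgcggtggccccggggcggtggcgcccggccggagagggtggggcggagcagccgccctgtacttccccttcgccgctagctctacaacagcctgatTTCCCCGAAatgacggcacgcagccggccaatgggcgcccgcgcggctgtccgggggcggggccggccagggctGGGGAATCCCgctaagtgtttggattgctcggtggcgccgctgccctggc
IRF9: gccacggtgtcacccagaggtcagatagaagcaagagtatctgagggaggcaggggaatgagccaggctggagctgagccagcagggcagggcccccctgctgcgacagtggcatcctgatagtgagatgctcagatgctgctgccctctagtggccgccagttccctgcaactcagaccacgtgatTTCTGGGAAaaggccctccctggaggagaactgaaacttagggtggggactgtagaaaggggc
In IRF1 the first stretch of capitals, which begins 124 bases before the start, matches GAS (TTCNNNGAA), and the other, which begins 50 bases before it, matches the NF-κB consensus. In IRF9 the capitals, which begin 63 bases before the start, match GAS. A core of the interferon-stimulated response element (GAAANNGAAA) was searched as well and had no match in either window. Both strands were searched over 300 bases, from 250 before to 50 after the start, and none of these matches overlapped another. Over 35116 RefSeq promoters of that length, 7.66% held a GAS match, 5.91% an NF-κB match and 3.57% a match to the response element core. RefSeq promoters were at hand for 4 of the 7 members (IRF1, IRF5, IRF8 and IRF9). The windows of IRF5 and IRF8 held none of these motifs. Those of IRF8 precede start sites inside the gene (chr16:85902580-85902829 and chr16:85902765-85903014, plus strand). They do not cover the canonical IRF8 start at chr16:85899162, so the promoter there was not searched. A match describes the letters and is not a mapped binding site.

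IRF1, the activator of antigen presentation genes, had the largest change among the 4 tested members. In the 4 unstimulated libraries it was at 8.19, 2.92, 2.11 and 6.83 CPM. With IFNγ it was at 115.29, 115.45, 130.04 and 122.48 CPM. All 4 IFNγ libraries lay far above all others in the series, and they differed little among themselves. The mean level was 121 CPM with IFNγ (SD 7.0, n = 4) and 5.01 CPM without stimulation (SD 2.96, n = 4). On the log2 scale IRF1 rose by 4.52 (SE 0.52, adjusted p = 7.63e-09, edgeR). IRF1 with IFNγ was also higher than in each of the other 10 groups, with adjusted p between 7.63e-09 and 1.22e-05 (edgeR).

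With IFNα, IRF1 was at 6.89, 27.9, 8.74 and 17.1 CPM. The 4 libraries were spread widely, and the lowest overlapped the unstimulated range. They averaged 15.2 ± 9.59 CPM (SD, n = 4). The rise over unstimulated cells was 1.53 on the log2 scale (SE 0.51, adjusted p = 0.0458, edgeR). This call stood near its threshold and was lost without any 1 of 5 libraries. The adjusted p was then 0.14, 0.148 or 0.0576 without unstimulated replicates 2, 3 or 4, and 0.267 or 0.0889 without IFNα replicates 2 or 4 (edgeR). It was also lost when replicate number was a block (adjusted p = 0.0582, edgeR).

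Compared directly, IRF1 was lower with IFNα than with IFNγ by a log2 fold change of -2.99 (SE 0.47, adjusted p = 1.22e-05, edgeR), and the libraries did not overlap. It was the 1 member of 4 called in that comparison, in which 9.39% of all genes tested were called. In the order of IRF1 levels, IFNγ came first, then IFNα and TNF, and the step from IFNγ to IFNα was the 1 of 10 steps between neighbours that passed the test.

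**Figure D1:**
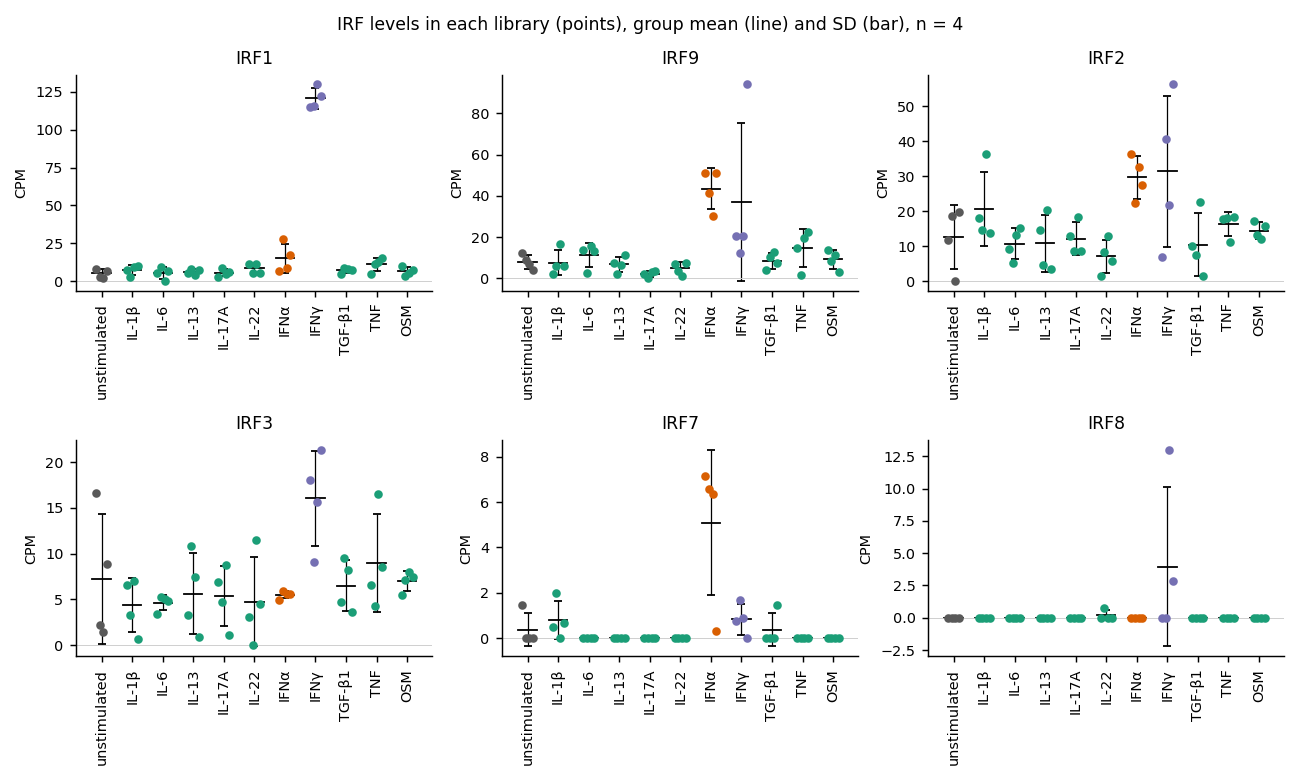
Level (CPM) of IRF1, IRF9, IRF2, IRF3, IRF7 and IRF8 in each library, by group. Points are libraries, horizontal lines group means and bars SD (n = 4). The 4 IFNγ libraries are at 115 to 130 CPM for IRF1, while for IRF9 1 IFNγ library is at 94.0 CPM and the other 3 are at 12.5 to 20.8.

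TNF, which signals through NF-κB, gave the next highest IRF1 levels, at 4.94, 11.2, 12.8 and 15.0 CPM. Of these, 1 library lay within the unstimulated range and 3 above it. The log2 fold change of 1.08 (SE 0.52) was not called (adjusted p = 0.193, edgeR). IRF1 with IL-1β, which also signals through NF-κB, was at 7.24 ± 3.29 CPM (SD, n = 4), and TNF and IL-1β did not pass the test against each other (log2 fold change 0.60, SE 0.50, adjusted p = 0.685, edgeR). The group means with the other 6 cytokines lay between 5.27 (IL-6) and 8.33 CPM (IL-22).

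IRF1 shares its locus with IRF1-AS1, a non-coding RNA on the opposite strand. Their exons overlap by 580 bases, which is 16.3% of the canonical IRF1 transcript (GENCODE 44, gene at chr5:132440440-132508719, 10 exons). An unnamed protein-coding gene on the opposite strand also overlaps this transcript, by 227 bases (6.39%). The reads were quantified with kallisto's default settings, which take no account of strand, so reads from the shared bases cannot be told apart. IRF1-AS1 was at 1.65 ± 1.09 CPM in unstimulated cells, 34.4 ± 14.1 with IFNα and 33.5 ± 10.8 with IFNγ (SD, n = 4). It rose with both, by log2 fold changes of 4.28 (SE 0.68, adjusted p = 8.09e-06) and 4.23 (SE 0.69, adjusted p = 1.34e-05, edgeR). The 2 interferons gave a difference of 0.05 (SE 0.55, adjusted p = 0.978, edgeR) for IRF1-AS1, beside -2.99 for IRF1. The antisense RNA was above IRF1 in 4 of 4 IFNα libraries and in 0 of 4 IFNγ libraries. For IRF1 with IFNα, which had between 11 and 42.4 counts per library, the share of counts from the overlaps was not tested.

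**Figure D2:**
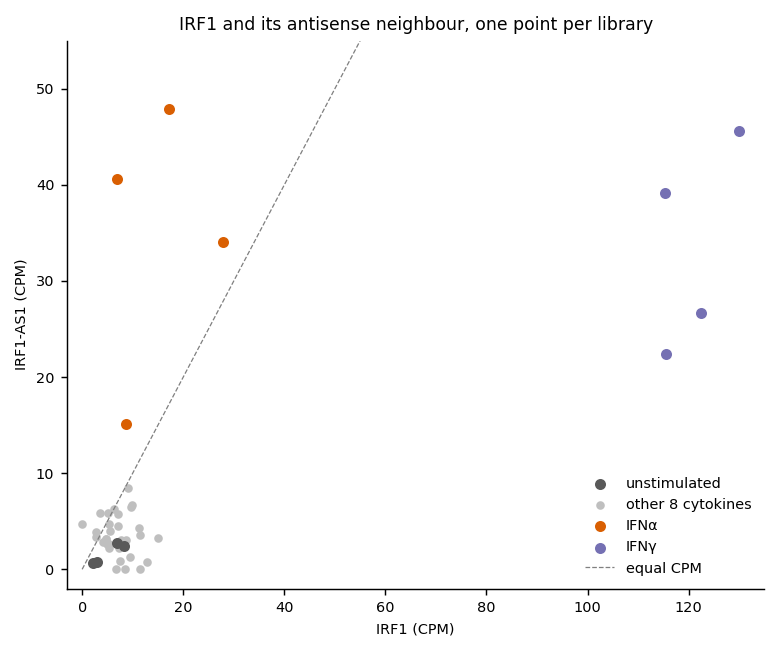
IRF1-AS1 against IRF1 (CPM), 1 point per library, with a dashed line at equal levels. All 4 IFNα libraries lie above the line, with IRF1-AS1 between 15.1 and 47.9 CPM, and all 4 IFNγ libraries lie below it, with IRF1-AS1 between 22.4 and 45.6 CPM.

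IRF9, the DNA-binding subunit of ISGF3, was at 12.2, 8.75, 7.04 and 4.10 CPM in unstimulated libraries. With IFNα it was at 51.2, 41.6, 30.2 and 50.9 CPM. All IFNα libraries lay above all unstimulated ones. The group means of 43.5 ± 9.92 and 8.03 ± 3.40 CPM (SD, n = 4) were 2.41 apart in the log2 fit (SE 0.62, adjusted p = 0.00567, edgeR). The call held without any 1 of the 8 libraries, with adjusted p between 0.0067 and 0.031 (edgeR).

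With IFNγ, IRF9 was at 20.6, 12.5, 20.8 and 94.0 CPM. All 4 libraries were above the unstimulated ones, the second by a narrow margin, and replicate 4 stood far above the other 3. The mean was 37.0 ± 38.2 CPM (SD, n = 4), and the log2 fold change of 2.18 (SE 0.62, adjusted p = 0.0146, edgeR) rested on that library. Without IFNγ replicate 4 the log2 fold change was 1.13 (adjusted p = 0.314), and without unstimulated replicate 4 it was 1.97 (adjusted p = 0.0613, edgeR). STAT2, the partner of IRF9, was at 703.5 CPM in IFNγ replicate 4 and between 1055 and 3282 in the other 3. Of 12 known ISGF3 targets, 0 were highest in replicate 4 among the IFNγ libraries.

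IRF9 with IFNα and with IFNγ did not pass the test against each other (log2 fold change 0.23, SE 0.57, adjusted p = 0.88, edgeR). Without IFNγ replicate 4 this difference was 1.28 (SE 0.61, adjusted p = 0.232, edgeR), and without IFNγ replicate 2 it was -0.08. In the order of IRF9 levels IFNα was first and differed from 8 of the other 10 groups, all except IFNγ and TNF. None of the 10 steps between neighbours passed the test. The lowest group was IL-17A, at 2.32, 0, 3.20 and 3.44 CPM, with all 4 libraries below the unstimulated ones. Its log2 fold change of -1.79 (SE 0.73) was not called (adjusted p = 0.26, edgeR). IRF9 (chr14:24161234-24168043) shares 93.0% of its canonical transcript with an unnamed readthrough gene on the same strand, so its counts may be split between both. An unnamed non-coding RNA on the opposite strand overlaps its exons by 308 bases (18.9%).

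IRF2, the factor that can oppose IRF1, was highest with the same cytokines, though no change was called. In unstimulated libraries it was at 11.8, 18.6, 0 and 19.8 CPM. With IFNα it was at 36.4, 22.4, 32.6 and 27.4 CPM, and with IFNγ at 6.78, 40.7, 21.7 and 56.3 CPM. The IFNα libraries lay above all unstimulated ones, while the IFNγ libraries overlapped them. The log2 fold changes were 1.23 (SE 0.60, adjusted p = 0.22) with IFNα and 1.31 (SE 0.60, adjusted p = 0.168, edgeR) with IFNγ. IRF2 with IFNγ, its highest group, differed from the lowest, IL-22, at 7.10 ± 4.73 CPM (SD, n = 4; adjusted p = 0.0287, edgeR), and from none of the other 9. These are the extremes of the 11 groups, and the adjustment, over genes alone, does not cover that choice. Their libraries overlapped, as IFNγ replicate 1, at 6.78 CPM, lay within the IL-22 range of 1.52 to 12.8 CPM.

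IRF3, the latent factor that TBK1 phosphorylates, was highest with IFNγ. It was at 16.6, 2.19, 1.41 and 8.88 CPM in unstimulated libraries and at 18.1, 9.14, 15.6 and 21.4 CPM with IFNγ. The groups overlapped through 1 unstimulated library, and the log2 fold change of 1.10 (SE 0.65, adjusted p = 0.325, edgeR) was not called. With IFNα the 4 libraries were at 4.96, 5.93, 5.56 and 5.60 CPM, all below the IFNγ ones. That difference, a log2 fold change of -1.53 (SE 0.67), was not called either (adjusted p = 0.169, edgeR). None of the steps between neighbouring groups passed the test for IRF2 or IRF3. IRF3 overlaps BCL2L12 on the opposite strand by 227 bases, 14.2% of its canonical transcript. BCL2L12 had 113 counts over all libraries, against 439 for IRF3.

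**Figure D3:**
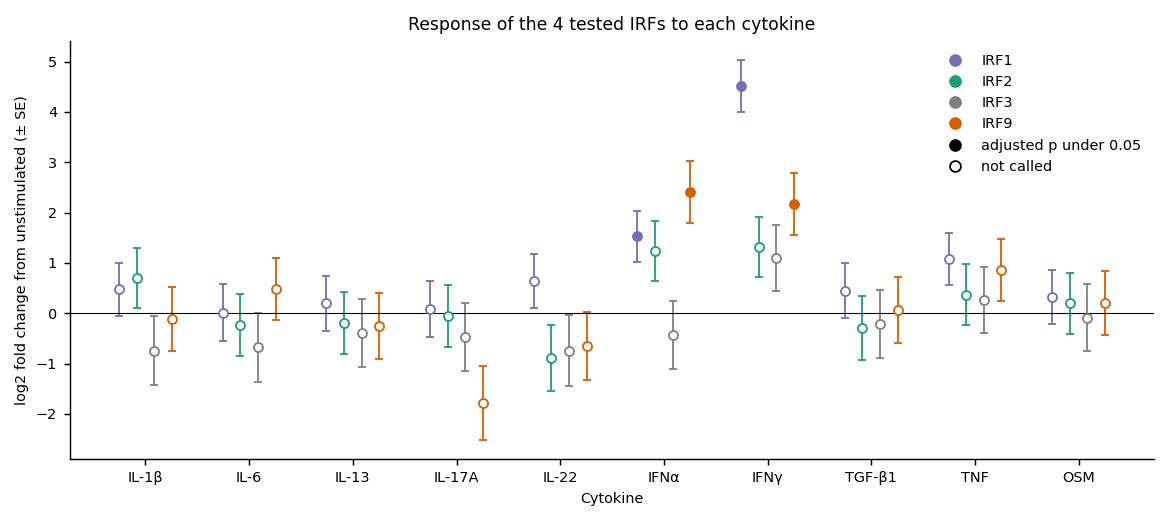
Log2 fold change (± SE) of IRF1, IRF2, IRF3 and IRF9 from unstimulated cells for each cytokine. Filled points were called at an adjusted p under 0.05 and open points were not. The 4 filled points are IRF1 and IRF9 with IFNα (1.53 and 2.41) and with IFNγ (4.52 and 2.18).

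With the other 8 cytokines 0 of the 4 tested members were called (edgeR), and DESeq2's Wald test called 0 as well. Only IRF1 with TNF and IRF9 with IL-17A had an unadjusted p under 0.05 there. The share of all genes tested that was called ranged in these comparisons from 0.0% with IL-22 and 0.0105% with IL-6 over 1.52% with IL-17A, 3.92% with IL-13, 3.96% with OSM, 5.69% with TGF-β1 and 7.37% with IL-1β to 11.5% with TNF. The direct comparisons of TNF with IL-1β and of OSM with IL-6, which both signal through gp130, gave 0 members as well, where 1.16% and 2.67% of all genes tested were called.

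IRF7, the latent factor that amplifies type I interferon signalling, was detected above 3 counts in 3 libraries of the series, all with IFNα. Its counts there were 13, 10, 8 and 0.48, against 3, 0, 0 and 0 in unstimulated libraries. Replicates 1 to 3 had a similar level, of 6.36 to 7.16 CPM, and replicate 4 was at 0.299 CPM. IFNα over unstimulated gave a ratio of summed counts, scaled for depth, of 10.5 (exact 95% interval 3.28 to 53.7, counting error only), and IFNα over IFNγ gave 6.36 (2.25 to 24.8). In a fit of all genes with any count the log2 fold change with IFNα was 3.33 (SE 1.44) and was not called after adjustment over 23560 genes (unadjusted p of 0.0209, adjusted p = 0.271, edgeR). IRF7 was at 0 in 32 of 44 libraries.

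IRF8, the myeloid and B cell factor, had 19 of its 20 counts in the IFNγ libraries, as 0, 0, 15 and 4 counts. The other count was in 1 IL-22 library. IFNγ replicate 3 was at 13.0 CPM, replicate 4 at 2.85 CPM and the other 2 at 0. In the fit of all genes with any count, the log2 fold change of IRF8 with IFNγ against unstimulated cells was 5.56 (SE 1.84). IRF8 did not pass this test (unadjusted p of 0.00252, adjusted p = 0.0575, edgeR). Its mean with IFNγ was at least 2.03-fold above the floor of 3 counts per library in unstimulated cells, where it was at 0. This rests on replicate 3, without which the mean of 0.949 CPM was under that floor of 1.95 CPM, a comparison added after the data were seen. The leukocyte genes PTPRC, ITGAM, CD14 and SPI1 were all at 0 in IFNγ replicates 3 and 4. IRF5 had 1 count in an IFNα library and 1 in a TNF library.

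Per kb of canonical transcript, where members can be compared with each other, unstimulated cells held mainly IRF2 (5.56 ± 4.02), IRF9 (4.94 ± 2.09) and IRF3 (4.56 ± 4.44 CPM per kb), with IRF1 at 1.41 ± 0.83 (SD, n = 4). The first 3 levels differed by less than their SD. The sum of the 7 members was 16.7 ± 8.46 CPM per kb in unstimulated cells, 50.3 ± 5.91 with IFNα and 82.6 ± 33.2 with IFNγ. IRF9 made up 37.7% ± 26.1 of the sum in unstimulated cells, 52.6% ± 7.06 with IFNα and 23.5% ± 14.1 with IFNγ. Both shares with interferon lay within 1 unstimulated SD of the unstimulated share. IRF1 made up 8.61% ± 2.38 in unstimulated cells, 8.50% ± 5.24 with IFNα and 45.0% ± 12.7 with IFNγ. IRF9 was the highest member per kb in 4 of 4 IFNα libraries, and IRF1 in 3 of 4 IFNγ libraries, with IRF9 above it in replicate 4 (57.8 against 34.5 CPM per kb). With the other cytokines the sum lay between 11.6 (IL-22) and 25.0 CPM per kb (TNF).

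**Figure D4:**
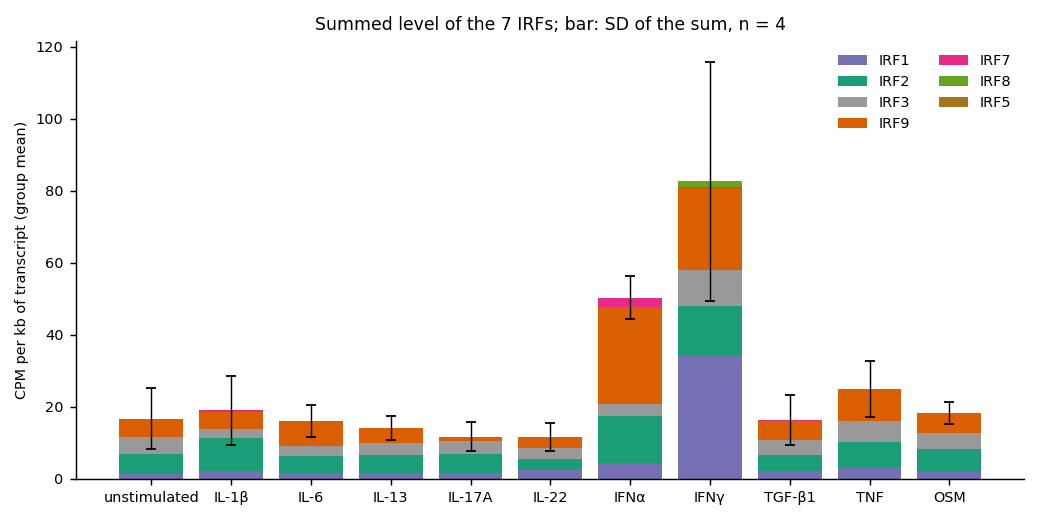
Summed level of the 7 members by group, in CPM per kb of canonical transcript. Segments are group means of each member, and error bars are the SD of the sum (n = 4). IFNα reaches 50.3, mostly IRF9, and IFNγ 82.6, with IRF1 as the largest segment at 34.0.

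The genes around the IRFs were described by lists of their role, each with its count of called genes and its median beside that of all genes tested (between -0.05 and 0.00 log2 in every comparison). Among 9 tested interferon receptors, kinases and STATs, 3 rose with IFNα (median log2 fold change 0.74), 4 with IFNγ (0.89) and 3 with TNF (0.34), and none of the 9 fell with these. STAT2 was at 445 ± 170 CPM in unstimulated cells, 2049 ± 408 with IFNα and 1691 ± 1142 with IFNγ (SD, n = 4). JAK2, a kinase of the IFNγ receptor, rose with IFNγ by a log2 fold change of 1.88 (SE 0.45, adjusted p = 0.00358, edgeR). With TNF the 3 genes that rose were receptor chains: IFNAR2 by 2.28 (SE 0.39), IFNGR2 by 1.36 (SE 0.34) and IFNAR1 by 0.74 (SE 0.20) on the log2 scale. With IL-1β, IFNAR2 and IFNAR1 rose, by 1.30 (SE 0.39) and 0.83 (SE 0.20). With TGF-β1 1 of the 9 fell, and with OSM IFNGR1 rose by 0.78 (SE 0.21).

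Of 12 tested sensors, adaptors and kinases upstream of IRF3, IRF5 and IRF7, 4 rose with IFNα (median 0.81) and 1 with IFNγ (0.12). RIGI, the sensor of viral RNA, went from 23.6 ± 4.89 to 1391 ± 40.8 CPM with IFNα and to 112 ± 19.8 with IFNγ (SD, n = 4), and the interferons differed by 3.64 on the log2 scale (SE 0.22, adjusted p = 1.66e-16, edgeR). TLR3, an endosomal sensor of double-stranded RNA, was at 3.62 ± 2.50, 138 ± 21.1 and 10.6 ± 7.19 CPM in the same order. DHX58, a relative of RIGI, had 67 counts with IFNα and 1 in unstimulated cells, a ratio scaled for depth of 68.1 (exact 95% interval 11.8 to 2730, counting error only). With TNF, TRAF3, an adaptor on the way to TBK1, rose by 2.69 (SE 0.60) and RIGI by 0.79 (SE 0.24). With IL-1β, RIGI rose by 1.09 (SE 0.23) and TBK1 by 0.68 (SE 0.19).

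Of 7 partners and co-repressors, 2 were tested, and 0 were called with either interferon. IRF2BP2, a co-repressor that binds IRF2, fell with TNF from 141 ± 54.0 to 68.0 ± 20.3 CPM (log2 fold change -1.05, SE 0.26, adjusted p = 0.00446, edgeR). In the list of negative feedback, 2 of 6 rose with IFNα and 2 with IFNγ. USP18, which blocks the type I receptor, had 1513 counts with IFNα, 59 with IFNγ and 2 in unstimulated cells. The depth-scaled ratios to unstimulated cells were 769 (exact 95% interval 212 to 6350) and 36.5 (9.67 to 309), and the interferons differed by 4.38 on the log2 scale (SE 0.62, adjusted p = 2.11e-06, edgeR). TRIM21, a ubiquitin ligase that acts on IRFs, rose by 3.15 (SE 0.48) and 2.26 (SE 0.47). SOCS3, an inhibitor of gp130 signalling, had 200 counts with OSM and 7 in unstimulated cells, a ratio of 29.8 (14.2 to 75.1).

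Of 13 tested genes known as IRF1 targets, 12 rose with IFNα (median log2 fold change 3.27) and 12 with IFNγ (4.33). The IRF1 mean itself was 3.02 times the unstimulated mean with IFNα and 24.1 times with IFNγ. In the direct comparison 5 of the 13 were lower with IFNα and 0 higher (median -0.83). IDO1, which degrades tryptophan, was at 22.9 ± 4.32 CPM with IFNα and 2046 ± 537 with IFNγ (SD, n = 4). GBP2 and GBP1, interferon-induced GTPases, were lower with IFNα by 3.33 (SE 0.28) and 2.06 (SE 0.16) on the log2 scale. CXCL10, a chemokine, was at 6318 ± 745 CPM with IFNα and 5730 ± 2043 with IFNγ, from 2.24 ± 2.92 in unstimulated cells. With TNF 4 of the 13 rose, among them CXCL10 at 162 ± 50.9 CPM, TAP1 at 13.5 ± 3.08 and NLRC5 at 8.60 ± 3.37. TAP1 carries peptides to MHC class I and NLRC5 activates its genes. With IL-1β 1 rose, CXCL10 at 40.9 ± 13.8 CPM, and 1 fell.

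The 12 genes known as ISGF3 targets all rose with IFNα (median 8.94), and 9 rose with IFNγ (4.08). With genes at 0 in unstimulated cells set to their lower bound against 3 counts per library, and genes at or under 3 counts in both groups left out, the medians were 8.22 over 12 genes and 3.15 over 11. All 12 were higher with IFNα than with IFNγ (median difference 4.45), and IRF9 itself differed by 0.23 without passing the test. RSAD2, an antiviral enzyme, was at 742 ± 41.6 CPM with IFNα, 1.40 ± 1.87 with IFNγ and 0 in unstimulated cells, which makes it at least 380.0-fold higher with IFNα (floor of 3 counts per library). IFIT1, which binds foreign RNA, was at 15510 ± 1079 CPM with IFNα and 276 ± 170 with IFNγ, and MX1, an antiviral GTPase, at 991 ± 172 and 23.8 ± 9.77. With TGF-β1, where IRF9 was at 8.64 ± 3.86 CPM, 6 of the 12 rose (median 2.43, or 2.00 over 10 genes with bounds). IFI44L was at 3.90, 9.57, 11.8 and 51.4 CPM in its 4 libraries, and all 6 called genes were lowest in replicate 1. With IL-1β, TNF and OSM 1 of the 12 rose in each, IFI6. Its level was 71.7 ± 20.3 CPM with TNF and 128 ± 17.3 with OSM, from 20.8 ± 4.80 in unstimulated cells (SD, n = 4). With IL-1β it was 123.5 ± 117.5 CPM, so the libraries there were spread widely. These lists were chosen with earlier results known, and their counts describe the list alone.

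Of 8 genes of type I and III interferon ligands, 0 passed the filter. IFNE had 71 counts in all, in 18 libraries and at most 9 in any. IFNA1 had 6 counts, IFNB1 had 1, and the other 5 were at 0.

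Likeness to each member was measured as Pearson's r of group means of log2 CPM over the 11 groups, among 9512 other genes. These are descriptions of points that share libraries and depth. The genes most like IRF1 were PSMB10, a subunit of the immunoproteasome (r = 0.98), CXCL9, a chemokine (0.98), and GBP5, a GTPase (0.98). Over the 44 libraries their r with IRF1 was 0.79, 0.87 and 0.85. By rank of the group means (Spearman's rho) the values were 0.95, 0.81 and 0.74. Nearest to IRF2 were IL15RA, a receptor chain for IL-15 (0.93), PSMA5, a proteasome subunit (0.92), and TAPBP, which loads peptides onto MHC class I (0.92). Nearest to IRF3 were NIP7 (0.92), C1QBP (0.92) and FKBP1A (0.91), and to IRF9 NUDCD1 (0.95), OTUD4 (0.92) and GRINA (0.92). Over 44 libraries r fell to between 0.41 and 0.58 for the genes nearest to IRF2 and IRF3, and to between 0.48 and 0.71 for those nearest to IRF9. Among the members themselves r over groups ranged from 0.52 (IRF2 with IRF3) to 0.82 (IRF1 with IRF3). For the same pairs r over the 44 libraries was 0.39 and 0.49.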

How the data were processed

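Total RNA of Ccd-18Co cells was made into libraries with the NEBNext Ultra II RNA kit and sequenced on a NovaSeq. Per the submitters' processing notes, reads were checked with FastQC (version 0.11.9) and MultiQC (version 1.14) and quantified with kallisto (version 0.48.0, in the study's methods with default settings, which ignore strand) on hg38, and the authors deposited estimated counts per gene symbol, not scaled for depth (5.77% of values are not whole). The transcriptome release and the step to symbols are not given in the sources used here. All columns matched 1 of the 44 libraries by library number in the labels, and groups came from sample titles.

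Estimated counts were rounded. Genes passing edgeR's filterByExpr (9513) were fitted with edgeR (version 4.0.16, R 4.3.3) in 1 quasi-likelihood model over all 44 libraries after TMM normalization (common biological coefficient of variation 0.331), with Benjamini-Hochberg adjustment within each comparison and calls at an adjusted p under 0.05. SE is the absolute log2 fold change over the square root of F. Comparisons with unstimulated cells share the same 4 libraries. Alternatives were DESeq2 (version 1.42.0) size factors and Wald test, other filters, only the 8 libraries compared, a replicate block, leaving out each library, and an absolute log2 fold change above 1.5. The fit was tested on simulated data. Among 66 pairs of replicates 0 were identical, and all differed by more than sampling noise.

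Intervals and the 3-count floor describe counting error alone: no molecular identifiers are described, so PCR copies of a molecule may count as separate reads. Positions and lengths of the canonical transcripts are from GENCODE release 44 (GRCh38). Genes named besides the members were, per list and comparison, at most the 3 with the largest absolute log2 fold change among those called without overlap between groups, the 3 most like each member, and annotated neighbours that overlap a member. Marker genes and the values of STAT2 by library were given as checks, and IFI44L by library after its values were seen. Some genes covered by this rule are not reported here. Members and lists were chosen with earlier results of these data known.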

Additional observations from a re-analysis of the deposited data

Results flagged for a closer look

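In 46 groups of 4 libraries in which a member was measured, the highest or lowest library was set against the others by Dixon's ratio of gap to range at its 95% critical value, and 3 stood apart, where chance alone gives 2.3. IRF9 in IFNγ replicate 4 was at 94.0 CPM, against 12.5 to 20.8 in the other 3, with STAT2 lowest in that library among the 4 and 0 of 12 ISGF3 targets highest there. IRF7 in IFNα replicate 4 was at 0.299 CPM, against 6.36 to 7.16. IRF2 in TNF replicate 3 was at 11.3 CPM, against 17.7 to 18.2.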

How the results depend on the processing

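Over 14 log2 fold changes and their alternatives, 4 values of 195 changed sign, all with an adjusted p above 0.8. IRF2 in IFNα against IFNγ was 0.032 without IFNα replicate 2, 0.041 without IFNγ replicate 2 and 0.369 without IFNγ replicate 4 (range -0.417 to 0.369), and IRF9 in the same comparison was -0.081 without IFNγ replicate 2 (range -0.081 to 1.281). The count of members called with IFNα went from 2 to 1 with all genes of any count, with only the 8 libraries compared and with the replicate block, and was 1 to 2 when a library was left out. In each of these, IRF1 was the member lost. The count with IFNγ went from 2 to 1 with only the 8 libraries compared, where IRF9 had an adjusted p of 0.0617 (edgeR), and was 1 to 2 when a library was left out. IRF1 with IFNγ and IRF9 with IFNα were called under every alternative run. The other counts kept their value. IRF9 with IL-17A had no value with only the 8 libraries compared, where it did not pass the filter. Replicate numbers did not pair the samples throughout: of 40 correlations of same-numbered libraries 6 were over 0.1, and 0 cytokines had all 4 over 0.1. The highest were for replicate 1, at 0.281 with IL-6, 0.277 with IFNα, 0.25 with OSM and 0.167 with TGF-β1. Libraries of other numbers averaged between -0.043 and -0.023 in these groups. What replicate 1 libraries may share was not tested. The replicate block changed no call but that of IRF1 with IFNα. With 2.0, 45.5 and 20 counts over the 44 libraries, IRF5, IRF7 and IRF8 were too low to be tested in the filtered fit.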

Other observations

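IRF4, a lymphoid factor of the same family that was outside the selection, had 6 counts over the 44 libraries. Of these, 4 were in 2 IFNα libraries (3 and 1), and 1 count each was in an IL-1β and in an IL-6 library. It was at or under 3 counts in every library.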
